A study of Drosophila melanogaster with 12 samples.

Results

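Transcripts of the proteasome and its helper proteins were followed in fly heads with and without TBPH, the fly homologue of TDP-43. The set held every gene whose RefSeq symbol begins with Prosalpha, Prosbeta, Rpt or Rpn and a digit, germline paralogues included, together with cnc, TER94, Ubqn, Rad23, PI31, Pomp, REG, Usp14, Ufd1-like (now Ufd1), Npl4 and p47. These are 59 genes, and the 50 with a probe set named for that gene alone were analysed, out of 11982 genes in all. The other 9, Prosalpha1, Prosalpha1R, Prosbeta1, Rpn9, Rpn10, Rpt1, Rpt6, Rpt6R and Ubqn, were not analysed here. The 50 genes comprised 6 of 7 subunits of the 20S alpha ring, 6 of 7 of the 20S beta ring, 7 of 10 of the 19S base, 7 of 8 of the 19S lid, 4 assembly factors and activators, the shuttle Rad23, 4 genes of the p97 group, the regulator cnc, and 14 of 16 germline paralogues.

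Whole heads were taken 60 h after eclosion from 4 groups with 3 arrays each, called biological replicates by the study. The rescue flies were homozygous for tbphΔ23, carried UAS-TBPH under the neuronal driver elav-GS-GAL4, and were fed 5 mM RU-486 (mifepristone) from eclosion. The tbphΔ142 and tbphΔ23 flies were homozygous for loss-of-function alleles of tbph, called null by the study, and carried no transgene. The w1118 flies were the control strain, and these 3 groups were on standard food. Drug, transgenes and re-expressed TBPH therefore differed together between the rescue and every other group and cannot be told apart. The sources used here give neither the sex of the flies nor the number of heads per array. The rescue restores TBPH in neurons only, while a head also holds glia, fat body, muscle and blood cells. RNA was read from bulk heads, so fewer cells of a type and less RNA per cell cannot be told apart.

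The 26S proteasome degrades proteins that carry ubiquitin chains. Its 20S core is a barrel of stacked rings, with gated alpha rings outside and proteolytic beta rings inside, and its 19S particle has a base of Rpt ATPases that unfold the substrate and a lid whose subunit Rpn11 removes the ubiquitin chain. Shuttles such as Rad23 bring substrates, and the ATPase p97, named TER94 in flies, extracts ubiquitinated proteins from complexes with the help of Ufd1, Npl4 and p47. The transcription factor Cnc, a fly member of the Nrf family, is known to raise the transcription of proteasome subunit genes together in response to proteasome inhibition. Removal of damaged and misfolded protein by this route is a long-standing theme in the biology of neurons and of TDP-43.

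Values are log2 intensities after RMA, so a difference of 1 is a factor of 2. All tests come from limma, with the 4 groups fitted together, and a gene was called at a Benjamini-Hochberg adjusted p under 0.05 over all 11982 genes. Array medians and correlations were close within groups, although rescue replicate 1 had a mean r of 0.973 with the other rescue arrays, against at least 0.984 for the other 11 arrays with theirs. The bright probe set of TBPH read 9.51 ± 0.34 in the rescue, 5.43 ± 0.10 in tbphΔ142, 8.19 ± 0.12 in tbphΔ23 and 7.98 ± 0.03 in w1118 (mean ± SD, n = 3 each). It was lower in tbphΔ142 than in w1118 (-2.55) and not lower in tbphΔ23. Which part of the transcript it reads is unknown here, so it does not tell how much intact transcript either allele leaves. The photoreceptor gene Arr2 and the neuronal gene Appl were bright on every array, as fits the labelled tissue, while brp, a protein of the active zone, had group means of 3.42 to 3.74.

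Every measured 26S subunit was lower in each mutant than in w1118, and lower again in the rescue than in either mutant. All 26 somatic subunits passed the test as lower in tbphΔ142 against w1118, with a median difference of -1.16 (range -1.46 for Rpt5 to -0.91 for Prosbeta3), while 15% of all genes were called lower. All 26 were also called lower in tbphΔ23 against w1118, with a median of -0.74 (range -1.08 for Rpt5 to -0.51 for Prosbeta3), while 11.9% of all genes were. Without tbphΔ23 replicate 2, Prosbeta3 did not pass in that comparison (adjusted p = 0.0564, limma), and the other 25 did. In the rescue the 26 subunits were called lower than in tbphΔ142 (median -1.06, background 13.2%), lower than in tbphΔ23 (median -1.46, background 15.1%) and lower than in w1118 (median -2.17, background 18%). These medians are factors of 4.50 below w1118 for the rescue, 2.24 for tbphΔ142 and 1.67 for tbphΔ23. The median over all genes tested lay between -0.016 and 0.013 in these 5 comparisons. Comparisons that share a group also share its 3 arrays.

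**Figure D1:**
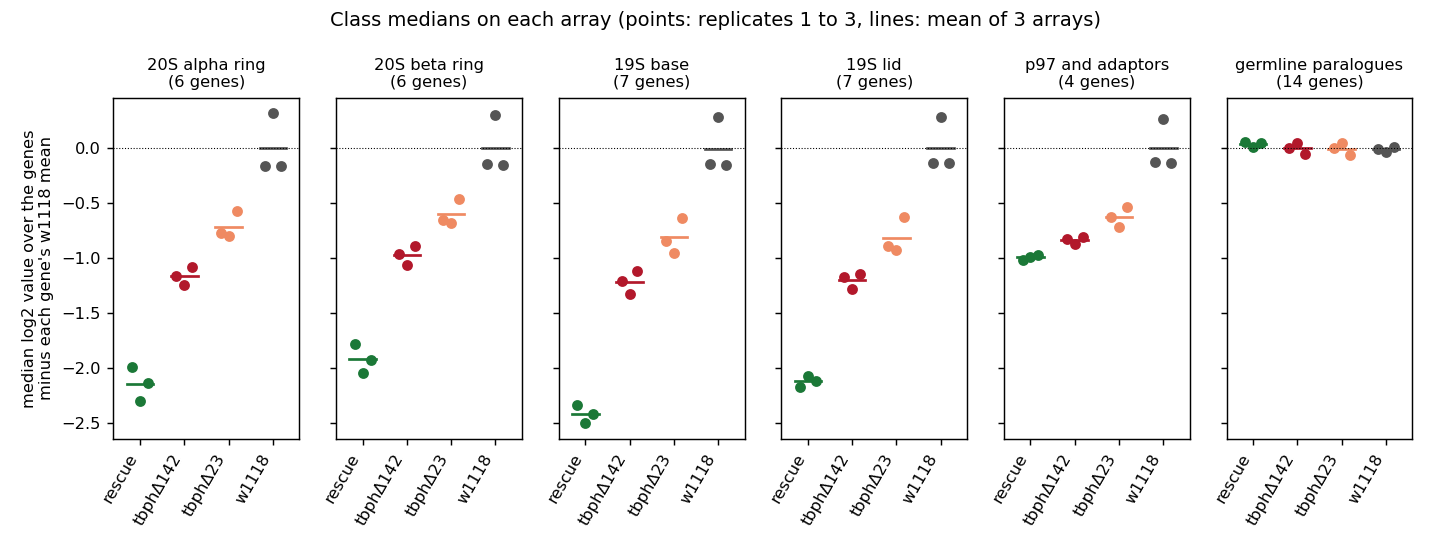
Median log2 value over the genes of a class on each array, minus the w1118 mean of each gene, for the rescue, tbphΔ142, tbphΔ23 and w1118 (points are the 3 arrays of a group, lines their mean). In the 4 subunit classes the groups stand in the order rescue, tbphΔ142, tbphΔ23, w1118 from low to high with no overlap, and the germline paralogues stay near 0.

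The arrays of the 4 groups did not overlap in any of the 26 subunits, and their order was the same in each. Over all genes, arrays lay lower without overlap in 23% for the rescue against w1118, 22.5% for tbphΔ142 and 21.2% for tbphΔ23 against w1118, and 19.3% for the rescue against tbphΔ142 and 21.3% against tbphΔ23. From low to high it was rescue, tbphΔ142, tbphΔ23 and w1118 in 26 of 26 subunits, in 4 of the 10 other somatic genes (Usp14, Rad23, TER94 and Ufd1) and in 0 of 14 germline paralogues. Of all 11982 genes, 233 (1.94%) showed this order. On single arrays, the median of the 26 subunits lay 2.09, 2.26 and 2.15 below the w1118 mean in the rescue. It lay 1.15, 1.24 and 1.09 below in tbphΔ142, and 0.79, 0.82 and 0.60 below in tbphΔ23. The w1118 arrays were at -0.14, 0.29 and -0.15, so replicate 2 stood above the other controls.

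Among the 19S base genes, Rpt5 had the largest change in both mutants. This ATPase of the base ring read 8.78, 8.53 and 8.63 in the rescue, 9.82, 9.74 and 9.98 in tbphΔ142, 10.10, 10.11 and 10.44 in tbphΔ23, and 11.16, 11.56 and 11.19 in w1118. The groups are separate on every array, and the gap between the rescue and tbphΔ142 is wider than that between the mutants. Rpt5 differed from w1118 by -2.65 ± 0.13 in the rescue (log2 difference ± SE, adjusted p = 2.41e-08, limma), by -1.46 ± 0.13 in tbphΔ142 (adjusted p = 9.57e-06) and by -1.08 ± 0.13 in tbphΔ23 (adjusted p = 1.04e-04).

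The ATPase Rpt3 had the smallest standard error among the subunits. Its values were 8.91, 8.84 and 8.85 in the rescue, 10.22, 10.09 and 10.11 in tbphΔ142, 10.38, 10.43 and 10.62 in tbphΔ23, and 11.32, 11.57 and 11.27 in w1118. Here too no array of a group reached the next group. The differences from w1118 were -2.52 ± 0.09 (adjusted p = 2.59e-09), -1.24 ± 0.09 (adjusted p = 2.36e-06) and -0.91 ± 0.09 (adjusted p = 2.96e-05) for the rescue, tbphΔ142 and tbphΔ23 in turn. Rpn1, the large scaffold of the base to which shuttles dock, read 7.88, 7.84 and 7.83 in the rescue, against 10.25, 10.73 and 10.22 in w1118, a difference of -2.55 ± 0.14. Its mutant values lay between, at 9.19, 8.92 and 9.28 in tbphΔ142 and 9.56, 9.40 and 9.77 in tbphΔ23. Rpt2, another ATPase of the ring, differed from w1118 by -2.40 in the rescue, -1.23 in tbphΔ142 and -0.78 in tbphΔ23. Over the 7 base genes the median difference from w1118 was -2.40 in the rescue, -1.25 in tbphΔ142 and -0.82 in tbphΔ23.

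In the lid, Rpn3 and Rpn11 fell furthest in the rescue. Rpn3, a scaffold subunit, read 8.66, 8.42 and 8.50 in the rescue, 9.88, 9.77 and 10.04 in tbphΔ142, 10.41, 10.37 and 10.66 in tbphΔ23, and 11.17, 11.60 and 11.13 in w1118. Against w1118 it was 6.86-fold lower in the rescue (-2.78 ± 0.13, adjusted p = 2.21e-08, limma), 2.65-fold lower in tbphΔ142 (adjusted p = 1.51e-05) and 1.77-fold lower in tbphΔ23 (adjusted p = 9.22e-04). Rpn11, the metalloprotease that cuts off ubiquitin chains, was at 8.91, 8.80 and 8.93 in the rescue, 10.24, 10.09 and 10.32 in tbphΔ142, 10.66, 10.61 and 10.99 in tbphΔ23, and 11.49, 11.94 and 11.51 in w1118. It was 6.78-fold lower in the rescue than in w1118 (-2.76 ± 0.13, adjusted p = 2.24e-08), 2.69-fold lower in tbphΔ142 (adjusted p = 1.35e-05) and 1.86-fold lower in tbphΔ23 (adjusted p = 5.31e-04).

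Its partner Rpn8, which forms a dimer with Rpn11, differed from w1118 by -2.12 in the rescue, -1.18 in tbphΔ142 and -0.93 in tbphΔ23, the last being the largest difference of a lid gene in that mutant. The scaffold subunits Rpn7, Rpn5 and Rpn6 differed from w1118 by -2.43, -1.93 and -1.99 in the rescue, by -1.23, -1.17 and -1.16 in tbphΔ142, and by -0.84, -0.68 and -0.65 in tbphΔ23. Among the 4 subunit classes, the lid had the widest spread in the rescue, from -2.78 for Rpn3 to -1.92 for Rpn12, a gene named here only as the end of the range. Its median difference from w1118 was -2.12 in the rescue, -1.18 in tbphΔ142 and -0.82 in tbphΔ23.

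Differences in the 20S core were somewhat smaller than in the 19S particle, a description without a test. In the rescue this did not hold between the alpha ring and the lid. In the alpha ring, which forms the gate of the barrel, the median difference from w1118 was -2.15 in the rescue, -1.16 in tbphΔ142 and -0.72 in tbphΔ23. Prosalpha4 read 8.49, 8.09 and 8.41 in the rescue, 9.32, 9.40 and 9.31 in tbphΔ142, 9.61, 9.77 and 9.81 in tbphΔ23, and 10.49, 10.74 and 10.47 in w1118. Its groups do not overlap, and the rescue arrays spread more widely than those of either mutant. It differed from w1118 by -2.23 ± 0.11 in the rescue (adjusted p = 2.84e-08, limma), -1.22 ± 0.11 in tbphΔ142 (adjusted p = 1.12e-05) and -0.84 ± 0.11 in tbphΔ23 (adjusted p = 2.22e-04). Prosalpha6 and Prosalpha5 had the largest alpha ring differences of the rescue from w1118 (-2.27 and -2.25), and Prosalpha3 that of tbphΔ142 (-1.23).

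In the beta ring the median difference from w1118 was -1.92 in the rescue, -0.96 in tbphΔ142 and -0.60 in tbphΔ23. Prosbeta5, which carries the chymotrypsin-like active site, read 9.96, 9.70 and 9.85 in the rescue, 10.63, 10.55 and 10.75 in tbphΔ142, 10.95, 10.94 and 11.08 in tbphΔ23, and 11.54, 12.04 and 11.56 in w1118. Its groups do not overlap, and w1118 replicate 2 stands well above the other control arrays. Prosbeta5 was 3.67-fold lower than w1118 in the rescue (adjusted p = 3.48e-07), 2.10-fold lower in tbphΔ142 (adjusted p = 7.89e-05) and 1.65-fold lower in tbphΔ23 (adjusted p = 0.00165). Prosbeta6 and Prosbeta4, which have no active site, were the beta subunits with the largest rescue differences from w1118 (-2.17 each). Prosbeta3 had the smallest difference of the 26 subunits in both mutants and was at -1.96 in the rescue.

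Set side by side, the 19S median was lower than the 20S median on all 9 rescue and mutant arrays. The 19S median minus the 20S median, each relative to w1118, was -0.41, -0.30 and -0.35 on the rescue arrays. The same gap was -0.12, -0.14 and -0.15 in tbphΔ142, -0.12, -0.16 and -0.08 in tbphΔ23, and 0.02, -0.02 and 0.01 in w1118. Of the 13 subunits with the larger falls against w1118, 9 in the rescue, 10 in tbphΔ142 and 11 in tbphΔ23 belonged to the 19S particle, which supplied 14 of the 26 genes. The gap did not hold between every pair of classes. On the rescue arrays the lid median was -2.17, -2.07 and -2.12, and that of the alpha ring -1.99, -2.30 and -2.14. There the base lay lowest (-2.33, -2.50 and -2.42) and the beta ring highest (-1.78, -2.04 and -1.92). These are descriptions of the classes and were not tested.

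**Figure D2:**
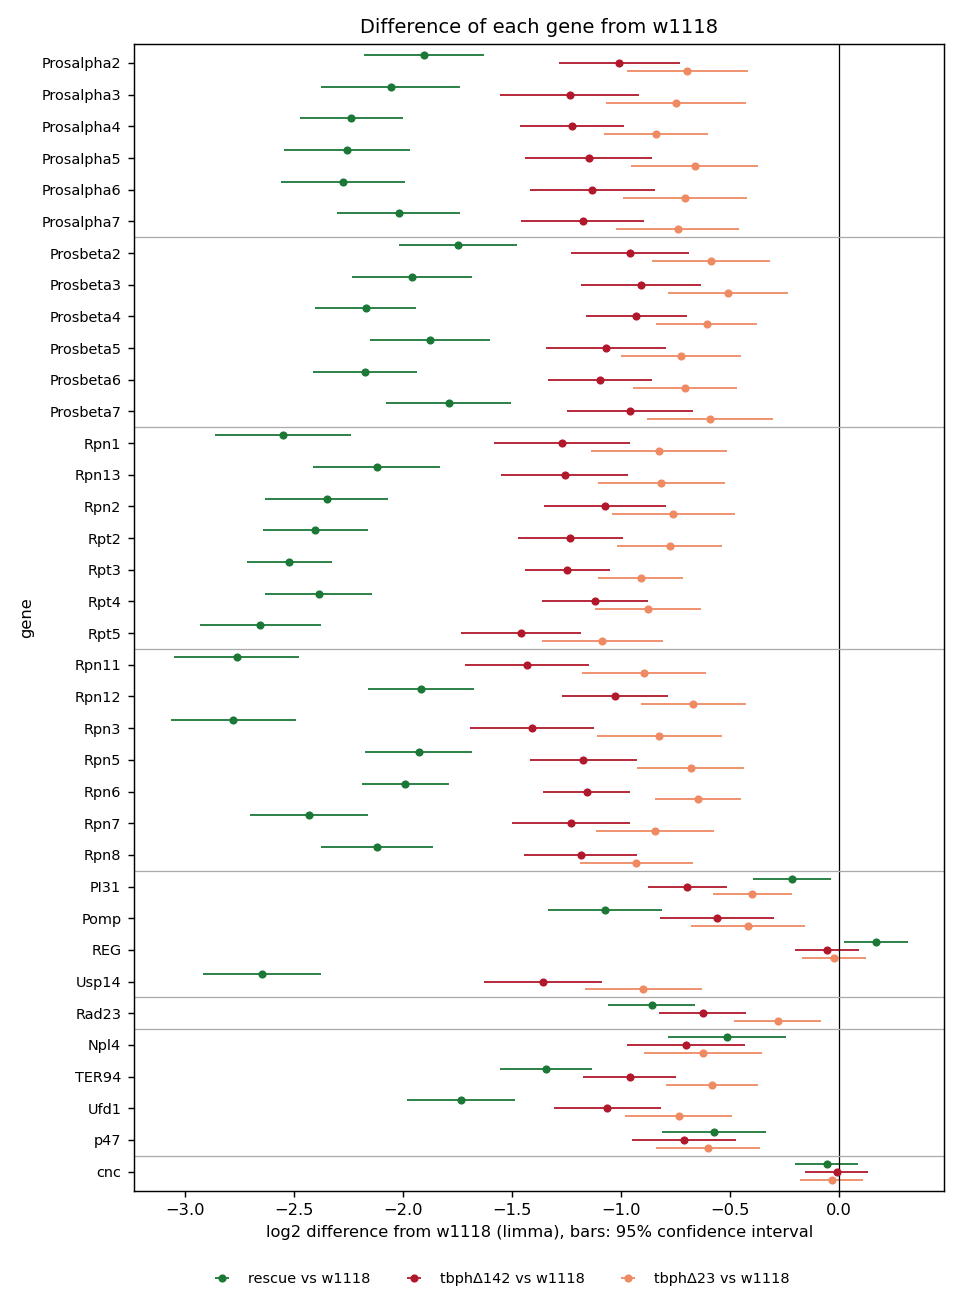
Log2 difference from w1118 with its 95% confidence interval for 36 somatic genes, for the rescue, tbphΔ142 and tbphΔ23 (limma). All intervals of the 26 subunits lie below 0, those of the rescue lie lowest, and Npl4, p47, PI31, REG and cnc depart from that order.

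The alleles were also set against each other. Against tbphΔ23, tbphΔ142 was lower in all 26 with no overlap of arrays (13.4% of all genes did so), by a median of -0.39, but 5 of 26 passed the test, and 2.07% of all genes were called lower. The 5 were Rpn3 (-0.58 ± 0.13, adjusted p = 0.0331, limma), Rpn11 (-0.54 ± 0.13, adjusted p = 0.0477), Rpn6 (-0.51 ± 0.09, adjusted p = 0.0124), Rpn5 (-0.49 ± 0.11, adjusted p = 0.0364) and Rpt2 (-0.45 ± 0.11, adjusted p = 0.0470). The lid therefore held 4 of the 5. The number of calls depends on single arrays: over all 50 genes it was 6, and it was 0 without tbphΔ23 replicate 3 and 25 without w1118 replicate 2. The median itself kept between -0.44 and -0.33 in these settings.

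**Figure D3:**
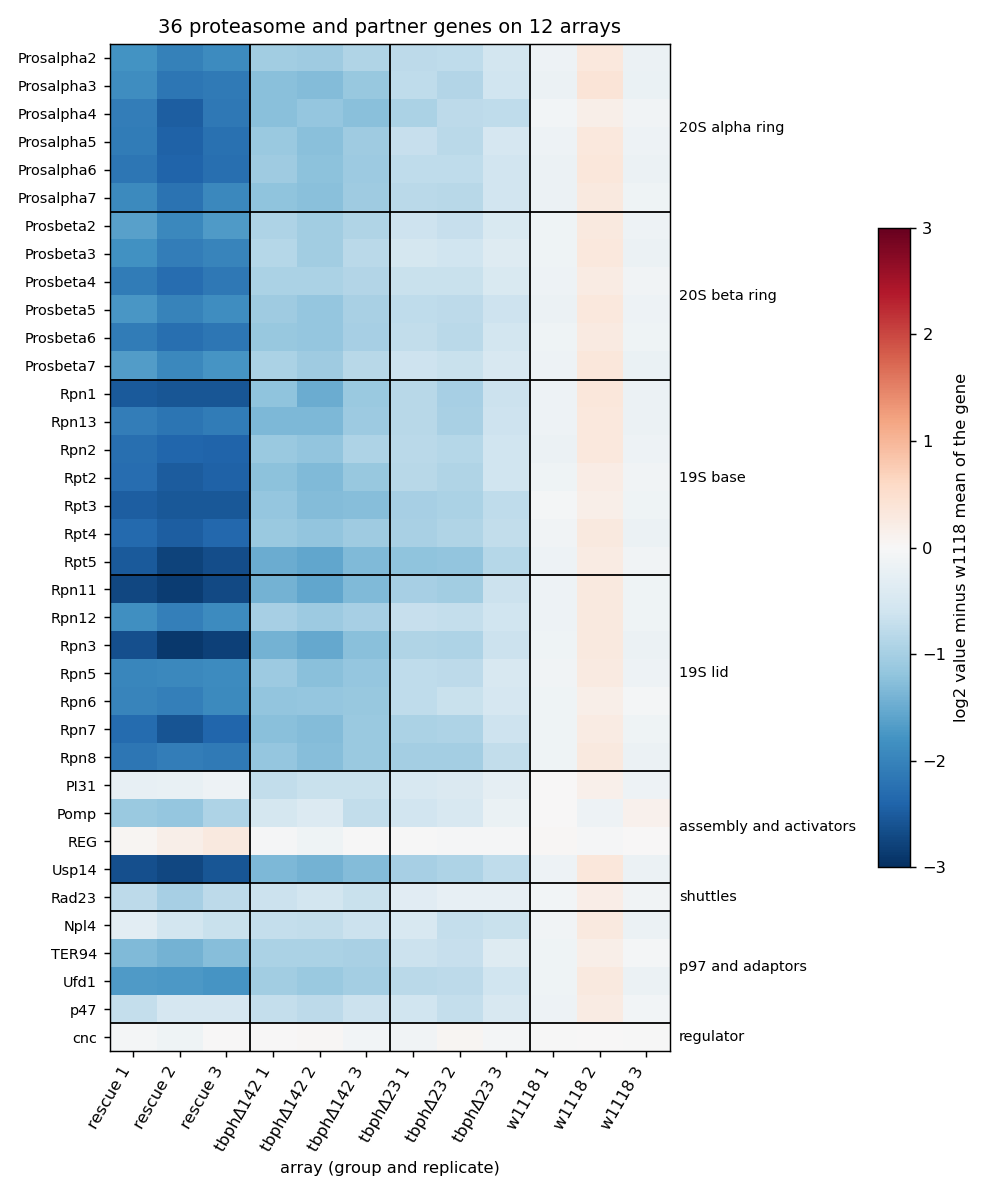
Log2 value minus the w1118 mean of the gene for 36 somatic genes (rows, by class) on the 12 arrays (columns: rescue, tbphΔ142, tbphΔ23, w1118), blue below and red above that mean. The 26 subunits, Usp14, Pomp, Rad23, TER94 and Ufd1 are bluest in the rescue, and w1118 replicate 2 is the column above the control mean.

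The subunits also moved together from array to array within groups. In w1118, replicate 2 was the highest array for 26 of 26 subunits, and in tbphΔ23, replicate 3 was the highest for 26 of 26. In tbphΔ142, replicate 3 was highest for 21, and in the rescue, replicate 1 was highest for 22. After removal of the group means, the correlation between subunit genes over the 12 arrays had a median of 0.92 (range 0.38 to 0.994 over 325 pairs), a description of genes that share arrays and their scaling. Residuals followed the subunit median closely for Usp14 (r = 0.94), Ufd1 (0.93) and TER94 (0.86), and not for cnc (-0.09), Pomp (-0.21) or REG (-0.22). For PI31, p47, Rad23 and Npl4, r was 0.75, 0.73, 0.70 and 0.70. The germline paralogues spanned -0.72 for Prosalpha4T2 to 0.75 for Prosbeta4R1, so an r near 0.70 is not particular to these partners.

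The spread within the control was wide for these genes. Their median SD over the 3 w1118 arrays was 0.254, against 0.102 over all genes, while in the rescue, tbphΔ142 and tbphΔ23 it was 0.111, 0.0914 and 0.136. Without w1118 replicate 2 the median subunit difference was -2.04 for the rescue against w1118, -1.03 for tbphΔ142 and -0.58 for tbphΔ23, and all 26 subunits were still called lower in each.

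Of the 4 assembly factors and activators, Usp14 kept the order of the subunits and the other 3 did not. Usp14, a deubiquitinase that sits on the 19S particle, read 8.92, 8.83 and 9.002 in the rescue, 10.22, 10.14 and 10.26 in tbphΔ142, 10.56, 10.64 and 10.80 in tbphΔ23, and 11.42, 11.89 and 11.38 in w1118. The groups kept the order of the subunits with no overlap. Usp14 was 6.26-fold lower than w1118 in the rescue (adjusted p = 2e-08, limma), 2.56-fold lower in tbphΔ142 (adjusted p = 1.28e-05) and 1.86-fold lower in tbphΔ23 (adjusted p = 3.42e-04), within the range of the subunits in each. Against the mutants, the rescue differed by -1.29 from tbphΔ142 (adjusted p = 1.63e-05) and by -1.75 from tbphΔ23 (adjusted p = 1.03e-06).

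Pomp is the chaperone that matures the 20S core. Its arrays read 8.27, 8.22 and 8.46 in the rescue, 8.85, 8.99 and 8.65 in tbphΔ142, 8.82, 8.91 and 9.18 in tbphΔ23, and 9.41, 9.24 and 9.52 in w1118. The mutants overlapped each other and neither overlapped w1118 or the rescue. Pomp was lower than w1118 by 1.07 in the rescue (-1.07 ± 0.12, adjusted p = 2.38e-05), by 0.56 in tbphΔ142 (-0.56 ± 0.12, adjusted p = 0.00471) and by 0.42 in tbphΔ23 (-0.42 ± 0.12, adjusted p = 0.0271). That last call was lost in 5 of 21 other settings, with adjusted p up to 0.106. With centred array medians it was lost, as it was without w1118 replicate 1 or 3, or without tbphΔ23 replicate 1 or 2.

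PI31 was lower in the mutants and not lower still in the rescue. This protein binds the 20S core and, in flies, serves the transport of proteasomes along axons. It read 8.42, 8.44 and 8.52 in the rescue, 7.93, 7.998 and 8.01 in tbphΔ142, 8.20, 8.23 and 8.40 in tbphΔ23, and 8.68, 8.82 and 8.52 in w1118. Rescue arrays lay above both mutants and below w1118, by a narrow margin from the nearest arrays of tbphΔ23 and w1118. PI31 was lower than w1118 in tbphΔ142 (-0.69 ± 0.08, adjusted p = 8.39e-05, limma) and in tbphΔ23 (-0.40 ± 0.08, adjusted p = 0.00496). In the rescue it was higher than in tbphΔ142 (0.48 ± 0.08, adjusted p = 0.00114), while its differences from tbphΔ23 (0.18, adjusted p = 0.126) and from w1118 (-0.21, adjusted p = 0.0659) did not pass. Without w1118 replicate 3 the difference of -0.21 from w1118 became -0.29 and passed (adjusted p = 0.0195).

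REG, the activator that caps the core in the nucleus in place of the 19S particle, was called in neither mutant against w1118. It read 9.24, 9.35 and 9.46 in the rescue, 9.15, 9.05 and 9.17 in tbphΔ142, 9.17, 9.16 and 9.16 in tbphΔ23, and 9.21, 9.13 and 9.19 in w1118. The rescue arrays were the highest, by a small margin. The difference from w1118 was 0.17 in the rescue (adjusted p = 0.0694), -0.05 in tbphΔ142 (95% interval -0.20 to 0.09) and -0.02 in tbphΔ23 (-0.17 to 0.13), and the rescue was 0.23 above tbphΔ142 (adjusted p = 0.0263). This call was lost in 6 of 21 settings, with adjusted p up to 0.105. They were centred array medians, a fit of the compared groups alone, and the fits without tbphΔ142 replicate 1 or 2 or without rescue replicate 2 or 3.

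Rad23, the measured shuttle, carries a ubiquitin-like domain that docks on the proteasome and domains that hold ubiquitin chains. It read 9.33, 9.12 and 9.34 in the rescue, 9.47, 9.57 and 9.44 in tbphΔ142, 9.77, 9.87 and 9.87 in tbphΔ23, and 10.03, 10.31 and 10.02 in w1118. The order was that of the subunits, at smaller distances. It was 1.81-fold lower than w1118 in the rescue (adjusted p = 1.58e-05, limma) and 1.54-fold lower in tbphΔ142 (adjusted p = 3.69e-04). In tbphΔ23 its difference of -0.28 passed narrowly (adjusted p = 0.0476) and was lost in 13 of 21 settings. Among them, leaving out any array other than w1118 replicate 1 and rescue replicates 1 and 2 gave adjusted p values of 0.0501 to 0.159. The rescue was lower than tbphΔ23 (-0.58, adjusted p = 4.78e-04), and its difference from tbphΔ142 did not pass (-0.23, adjusted p = 0.0789).

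All 4 genes of the p97 group were lower than w1118 in the rescue and in both mutants. They parted over whether the rescue was lower than the mutants. TER94, the p97 ATPase, read 10.32, 10.22 and 10.37 in the rescue, 10.70, 10.69 and 10.67 in tbphΔ142, 10.9996, 10.95 and 11.26 in tbphΔ23, and 11.52, 11.83 and 11.60 in w1118. Ufd1, the adaptor that binds ubiquitin chains with Npl4, was at 8.19, 8.15 and 8.10 in the rescue, 8.83, 8.76 and 8.86 in tbphΔ142, 9.06, 9.09 and 9.28 in tbphΔ23, and 9.76, 10.18 and 9.70 in w1118. Both kept the order of the subunits without overlap. TER94 was 2.54-fold lower in the rescue than in w1118 (adjusted p = 6.68e-07, limma) and Ufd1 3.32-fold (adjusted p = 2.63e-07). Relative to tbphΔ142 the rescue differed by -0.38 in TER94 (adjusted p = 0.0115) and by -0.67 in Ufd1 (adjusted p = 9.72e-04).

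Npl4, which forms a dimer with Ufd1, was not called lower in the rescue than in the mutants. It read 8.74, 8.51 and 8.40 in the rescue, 8.35, 8.31 and 8.42 in tbphΔ142, 8.58, 8.35 and 8.39 in tbphΔ23, and 8.95, 9.35 and 8.89 in w1118. Rescue and mutant arrays overlapped, and all 9 lay below w1118. It was lower than w1118 by 0.51 in the rescue (-0.51 ± 0.12, adjusted p = 0.00643), by 0.70 in tbphΔ142 (-0.70 ± 0.12, adjusted p = 0.00138) and by 0.62 in tbphΔ23 (-0.62 ± 0.12, adjusted p = 0.00372). The rescue differed from tbphΔ142 by 0.19 (95% interval -0.08 to 0.46) and from tbphΔ23 by 0.11 (-0.16 to 0.38).

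The other p97 adaptor, p47, which directs p97 to membrane fusion, had the same arrangement. Its values were 8.47, 8.67 and 8.67 in the rescue, 8.47, 8.39 and 8.53 in tbphΔ142, 8.57, 8.45 and 8.70 in tbphΔ23, and 9.02, 9.42 and 9.09 in w1118. Again the 9 rescue and mutant arrays lay below all w1118 arrays and mixed among themselves. It differed from w1118 by -0.57 in the rescue (adjusted p = 0.00142), -0.71 in tbphΔ142 (adjusted p = 5.28e-04) and -0.60 in tbphΔ23 (adjusted p = 0.00214). The rescue differed from tbphΔ142 by 0.14 (95% interval -0.10 to 0.38) and from tbphΔ23 by 0.03 (-0.21 to 0.27). The intervals of Npl4 and p47 thus lie above the differences of Ufd1 between the rescue and each mutant, -0.67 and -0.999. The difference between the genes was not tested.

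**Figure D4:**
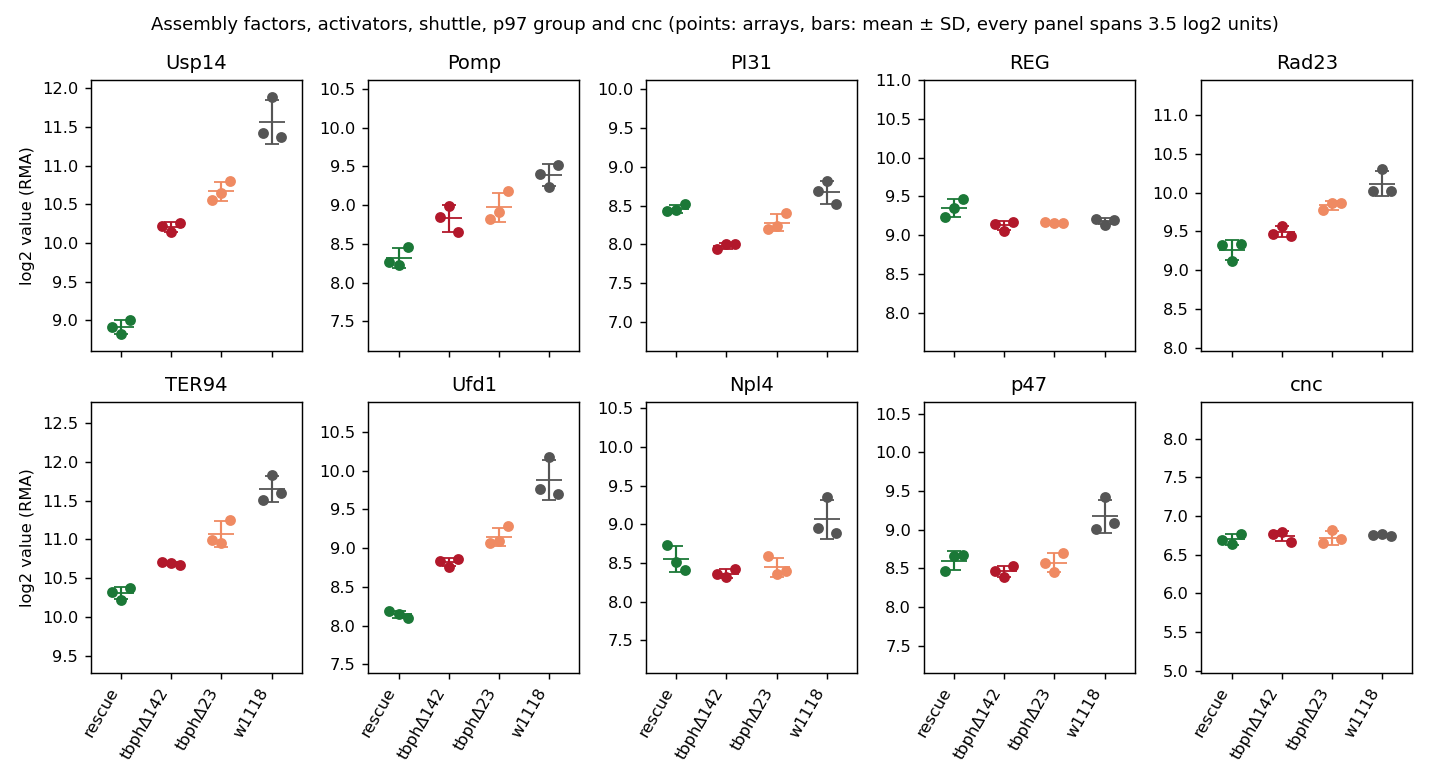
Log2 values of the 10 somatic genes outside the 26S particle in the rescue, tbphΔ142, tbphΔ23 and w1118 (points are arrays, bars the mean ± SD of 3, every panel spans the same number of log2 units). Usp14, Rad23, TER94 and Ufd1 fall in steps towards the rescue. The rescue points of PI31 lie above those of the mutants, a difference called against tbphΔ142 and not against tbphΔ23. Npl4 and p47 are level over the rescue and both mutants, and cnc is level over all 4 groups.

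Counted over all 50 genes, 35 were called lower and 0 higher in the rescue against w1118, 34 lower and 2 higher in tbphΔ142, and 35 lower and 0 higher in tbphΔ23. Against tbphΔ142 the rescue had 30 lower and 2 higher, PI31 and REG, and against tbphΔ23 it had 31 lower and 1 higher, Prosbeta2R1. That last call was lost in 5 of 21 settings (adjusted p of 0.0536 to 0.0954), among them those without tbphΔ23 replicate 2 or 3 or without rescue replicate 1. Genes called higher made up 16.9% of all genes for the rescue against w1118, 10% for tbphΔ142 and 9.4% for tbphΔ23, and 14.3% in either comparison of the rescue with a mutant. For the mean of both mutants against w1118, 35 of the 50 were lower and 1 higher, against 15.7% and 11.4% of all genes.

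The transcript of cnc, the regulator, did not follow the subunits. Among the probe sets for cnc, one was bright and the other near the floor. On the bright one the arrays gave 10.06, 10.18 and 10.38 in the rescue, 10.31, 10.35 and 10.19 in tbphΔ142, 10.28, 10.36 and 10.41 in tbphΔ23, and 10.29, 10.31 and 10.30 in w1118. The 4 groups overlap, and the rescue has both the lowest array and the widest spread. In a fit of single probe sets it differed from w1118 by -0.09 in the rescue (95% interval -0.27 to 0.09, adjusted p = 0.431, limma), by -0.02 in tbphΔ142 (-0.20 to 0.16, adjusted p = 0.925) and by 0.05 in tbphΔ23 (-0.13 to 0.23, adjusted p = 0.763). The lower bound of -0.27 in the rescue lies above the difference of each of the 26 subunits there. The dim probe set had group means of 3.09 to 3.20. The median of both probe sets, the value used for the gene, differed by at most 0.05 in size between any groups and was called in none. Transcript isoforms of cnc and the level or place of its protein were not measured.

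Of the genes known to act on Cnc, maf-S, the small Maf protein with which it binds DNA, was higher in all 3 groups than in w1118. It read 9.55, 9.65 and 9.66 in the rescue, 9.57, 9.72 and 9.59 in tbphΔ142, 9.50, 9.56 and 9.48 in tbphΔ23, and 9.23, 9.37 and 9.32 in w1118. The w1118 arrays lay below all the others. Its differences from w1118 were 0.32 in the rescue (adjusted p = 0.00243), 0.32 in tbphΔ142 (adjusted p = 0.00350) and 0.21 in tbphΔ23 (adjusted p = 0.0373), and the last was lost in 8 of 21 settings, with adjusted p of 0.0599 to 0.127, among them those without any array of tbphΔ23 or without w1118 replicate 1 or 3. Keap1, which holds Cnc back, was called in no comparison. Pngl, whose mammalian counterpart removes sugars from an Nrf factor, was lower in tbphΔ23 (-0.25, adjusted p = 0.0480, lost in 12 of 21 settings, 10 of which leave out an array) and did not pass in tbphΔ142 (-0.23, adjusted p = 0.0624) or the rescue (-0.15, adjusted p = 0.194). The mammalian counterpart of rngo is a protease that cuts an Nrf factor, and rngo differed from w1118 by 0.27 in the rescue (adjusted p = 0.0629).

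The germline paralogues are second copies of subunit genes, those with the suffix T named for the testis. They were dim, with group means from 2.89 to 5.10 where the lowest deposited value was 2.32, and no detection calls were used here. Their median difference from w1118 was -0.01 in the rescue, 0.02 in tbphΔ142 and 0.00 in tbphΔ23. Against w1118, 2 of 14 were called lower and 0 higher in the rescue, 0 lower and 2 higher in tbphΔ142, and 1 lower and 0 higher in tbphΔ23. The share of the 14 called lower was 14.3% in the rescue and 7.14% in tbphΔ23, against 18% and 11.9% of all genes.

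Prosalpha6T read 3.19, 3.29 and 3.35 in the rescue, 3.31, 3.37 and 3.34 in tbphΔ142, 3.30, 3.22 and 3.25 in tbphΔ23, and 3.57, 3.42 and 3.81 in w1118. It was lower than w1118 in the rescue (-0.33, adjusted p = 0.0137, limma) and tbphΔ23 (-0.35, adjusted p = 0.0168), not in tbphΔ142 (-0.26, adjusted p = 0.0534). With array medians centred it passed in neither the rescue (adjusted p = 0.0617) nor tbphΔ23 (adjusted p = 0.0537), and the call in tbphΔ23 was also lost without w1118 replicate 3 or tbphΔ23 replicate 2. Rpt3R was lower than w1118 in the rescue (-0.29, adjusted p = 0.0212). Prosbeta2R2 was higher than w1118 in tbphΔ142 (0.33, adjusted p = 0.0144), as was Prosbeta2R1 (0.20, adjusted p = 0.0231), and Prosbeta2R1 was also higher in tbphΔ142 than in tbphΔ23 (0.27, adjusted p = 0.0271, where 1.42% of all genes were). Each of these paralogue calls was lost in 2 to 7 of 21 settings. The call of Rpt3R was lost without w1118 replicate 2 or rescue replicate 2 or 3, that of Prosbeta2R2 without w1118 replicate 2 or tbphΔ142 replicate 2 or 3, and that of Prosbeta2R1 between the alleles without any array of tbphΔ142 or without tbphΔ23 replicate 2 or 3. The other 10 paralogues, Prosalpha3T, Prosalpha4T1, Prosalpha4T2, Prosbeta4R1, Prosbeta4R2, Prosbeta5R1, Prosbeta5R2, Rpn12R, Rpn13R and Rpt4R, were called in none of these comparisons. Sums over the 10 testis genes and 5 ovary genes set beside them varied little between groups. The log2 of the summed intensities spanned 7.08 to 7.21 in the rescue, 7.05 to 7.15 in tbphΔ142, 7.09 to 7.15 in tbphΔ23 and 7.04 to 7.10 in w1118 for testis. For ovary it spanned 7.24 to 7.44, 7.19 to 7.35, 7.27 to 7.47 and 7.36 to 7.45 in the same order of groups. The brightest gene weighs most in each sum, bol for testis (group means 5.36 to 5.60) and BicD for ovary (6.87 to 7.02). Among single genes, dj was called higher in the rescue than in tbphΔ23 (0.35), Mst87F than in tbphΔ142 (0.24) and Mst98Ca than in w1118 (0.31). No other gene of either list was called in these comparisons. The spermatid genes dj, Mst87F and Mst84Da had group means of 2.87 to 3.66, and the oocyte genes osk and nanos of 2.80 to 3.26.

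**Figure D5:**
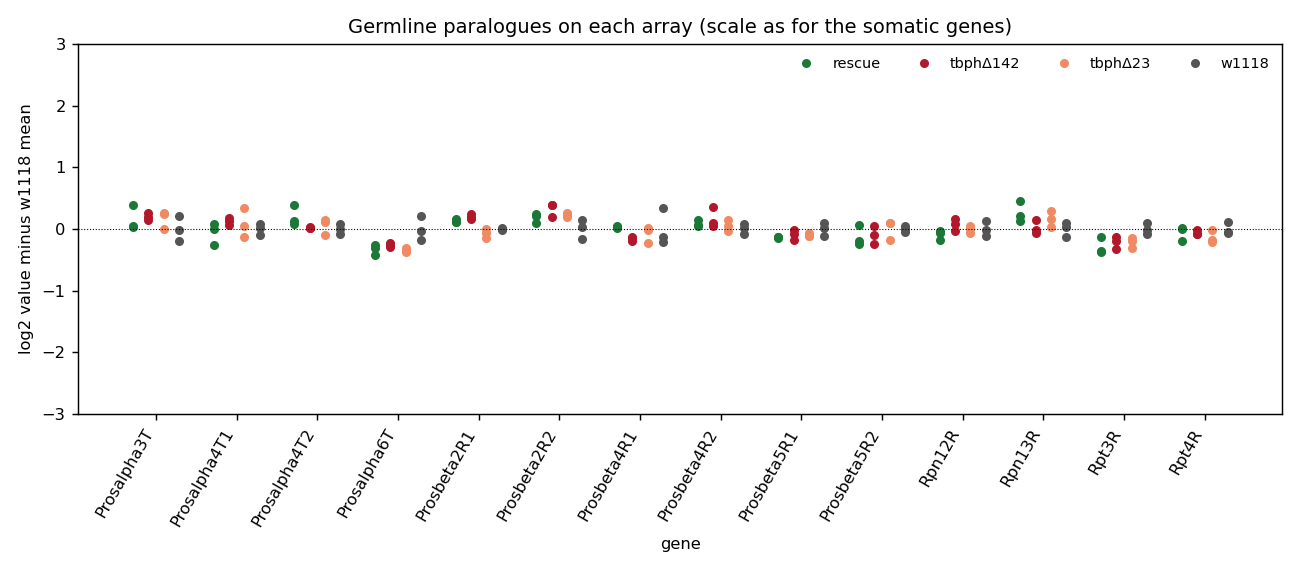
Log2 value minus the w1118 mean for the 14 germline paralogues on each of the 12 arrays (rescue, tbphΔ142, tbphΔ23, w1118 from left to right for each gene), on an axis from -3 to 3 as wide as for the somatic genes. The points stay within 0.5 of 0 and show no common order of the groups.

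Genes that work with the proteasome were listed as neighbours, and 20 of the 27 listed were measured. In the rescue against w1118, 10 of 20 were lower and 4 higher, beside 18% and 16.9% of all genes. In tbphΔ142, 11 were lower and 1 higher (15% and 10% of all genes), and in tbphΔ23, 10 were lower and 1 higher (11.9% and 9.4%). The 2 deubiquitinases Uch and Uch-L5 fell as far as the subunits. Uch, which releases ubiquitin from small adducts, read 8.05, 7.78 and 7.98 in the rescue, 9.50, 9.49 and 9.53 in tbphΔ142, 9.90, 9.84 and 10.16 in tbphΔ23, and 10.38, 10.82 and 10.38 in w1118. It was 2.59 lower in the rescue than in w1118 (-2.59, adjusted p = 2.65e-08, limma), and its difference from tbphΔ142 (-1.57) was larger than that between tbphΔ142 and w1118 (-1.02).

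Uch-L5, which binds the 19S base through Rpn13, read 6.46, 6.45 and 6.33 in the rescue, 7.83, 7.62 and 7.84 in tbphΔ142, 8.29, 8.10 and 8.51 in tbphΔ23, and 8.98, 9.44 and 8.76 in w1118. It differed from w1118 by -2.65 in the rescue (adjusted p = 1.11e-07), -1.30 in tbphΔ142 (adjusted p = 8.64e-05) and -0.76 in tbphΔ23 (adjusted p = 0.00424). Sem1, a small lid subunit outside the naming rule of the set, read 9.16, 8.93 and 9.24 in the rescue, 10.08, 10.10 and 10.05 in tbphΔ142, 10.40, 10.40 and 10.68 in tbphΔ23, and 11.04, 11.34 and 11.14 in w1118. Its differences of -2.06, -1.09 and -0.68 from w1118, for the rescue, tbphΔ142 and tbphΔ23 in turn, fall within the ranges of the 26 subunits. Both genes had the 4 groups in the order of the subunits without overlap.

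The sources of ubiquitin divided. The polyubiquitin genes Ubi-p63E and Ubi-p5E were lower than w1118 in the rescue (-1.06 and -0.93), tbphΔ142 (-0.79 and -0.60) and tbphΔ23 (-0.51 and -0.53), all called. RpS27A and RpL40, in which ubiquitin is fused to a ribosomal protein, were called in neither mutant, at differences of 0.03 to 0.12. In the rescue both were higher than in w1118 (0.31, adjusted p = 7.10e-04, and 0.25, adjusted p = 0.00267). Usp5, which takes apart free ubiquitin chains, was lower than w1118 in the rescue (-1.07), tbphΔ142 (-0.68) and tbphΔ23 (-0.57).

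Among partners of PI31 and p97, ntc was lower than w1118 in all 3 groups. The gene encodes an F-box protein that binds PI31 and read 5.83, 5.94 and 5.98 in the rescue, 6.18, 6.24 and 5.96 in tbphΔ142, 6.19, 6.12 and 6.03 in tbphΔ23, and 6.76, 7.09 and 6.97 in w1118. It was lower than w1118 by a similar amount in the rescue (-1.02), tbphΔ142 (-0.81) and tbphΔ23 (-0.82), and the rescue was called against neither mutant (adjusted p = 0.137 and 0.151). Plap, the fly counterpart of a p97 cofactor, differed from w1118 by -1.11 in the rescue, -0.84 in tbphΔ142 and -0.73 in tbphΔ23, and casp by -1.11, -0.65 and -0.46 in the same groups. Of the 4 measured ubiquitin-conjugating enzymes, ben was called in no comparison, vih was lower in the rescue (-0.30) and tbphΔ142 (-0.35) than in w1118, and Ubc7, which serves degradation at the endoplasmic reticulum, was higher in the rescue (0.32). Ubc6 was called in no comparison by the median of its probe sets, which differed. The bright one was lower than w1118 in the rescue (-0.33, adjusted p = 0.0253, limma over probe sets) and tbphΔ142 (-0.40, adjusted p = 0.0141). The dim one was higher in the rescue (0.32, adjusted p = 0.00815).

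Markers of other cell types moved with some groups, and their part in the values above was not tested. The log2 of the summed intensities of the 2 hemocyte genes, Hml and NimC1, was 9.03 to 9.18 in the rescue, 7.41 to 7.62 in tbphΔ142, 6.86 to 7.16 in tbphΔ23 and 6.54 to 7.27 in w1118. Hml, the brighter of the 2, was called higher than w1118 in the rescue (1.98) and in neither mutant. NimC1 was called higher than w1118 in the rescue (2.83), tbphΔ142 (1.32) and tbphΔ23 (0.85), with no overlap of arrays between the 4 groups. On the same scale the 4 fat body genes summed to 15.46 to 15.59 in the rescue, 14.05 to 14.39 in tbphΔ142, 12.86 to 13.38 in tbphΔ23 and 13.87 to 14.57 in w1118. In the rescue Lsp2 (3.96), Yp2 (1.29) and apolpp (1.18) were called higher than in w1118, and also higher than in either mutant. Yp1 (0.69) was not called there, though its rescue arrays lay above all w1118 arrays. The members disagreed in tbphΔ23 against w1118. There the yolk protein genes Yp1 (-2.04) and Yp2 (-3.39) were lower, while Lsp2 (-0.92) and apolpp (0.16) were not called. The 4 neuronal genes summed to 11.81 to 11.92 in the rescue, 11.82 to 12.11 in tbphΔ142, 12.01 to 12.08 in tbphΔ23 and 11.76 to 11.96 in w1118, a sum set mostly by Appl. Of these genes elav (0.30), nSyb (0.29) and brp (0.32) were called higher in the rescue than in w1118 and Appl (-0.17) was not called. The gene elav was also called higher than w1118 in tbphΔ142 (0.31) and tbphΔ23 (0.36), and nSyb, brp and Appl were called in neither mutant. Between the rescue and the mutants, nSyb was called higher than in tbphΔ142 (0.36) and Appl lower than in tbphΔ23 (-0.29). The muscle gene up was lower in the rescue than in w1118 (-1.18), tbphΔ142 (-1.26) and tbphΔ23 (-1.01), and Act88F, the other muscle gene, was called in none of these. The glial gene repo was lower than w1118 in tbphΔ142 (-0.35) and tbphΔ23 (-0.33) and not called in the rescue (0.15), which was higher than tbphΔ142 (0.50) and tbphΔ23 (0.48). The 3 other glial genes were called in no such comparison. The photoreceptor gene trp was higher than w1118 in tbphΔ142 (0.28) and tbphΔ23 (0.34) and not called in the rescue (-0.10). In the rescue trp was lower than in tbphΔ142 (-0.38) and tbphΔ23 (-0.44), and Arr2 was called in none of these comparisons. As a reading of RNA integrity, the difference between the 3′ and 5′ actin probe sets was 1.82 to 2.29 in the rescue, 2.67 to 3.03 in tbphΔ142, 2.26 to 2.42 in tbphΔ23 and 2.24 to 2.70 in w1118. The same difference for GAPDH was 1.87 to 2.03 in the rescue, 1.91 to 2.11 in tbphΔ142, 1.84 to 1.90 in tbphΔ23 and 1.74 to 1.94 in w1118.

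Each of the 26 subunits rests on a single probe set. For 4 of them, Prosbeta5, Prosbeta7, Rpn13 and Rpn6, its name ends in _s_at, a suffix for probes that can match more than 1 transcript. The differences of these 4 from w1118 lay within the range of the other subunits in each group.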

How the data were processed

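Head RNA from 12 samples was hybridised to Drosophila Genome 2.0 arrays. The authors made the deposited log2 values from the scans by RMA, with background correction, quantile normalization and summarization per probe set. The sources used here name no RMA version. The values span 2.32 to 14.23, and precision is limited by how many arrays there are. The platform annotation pairs 13647 of the 18952 probe sets with 1 gene; the 402 paired with several genes and the 4903 it does not list were left out. Symbols were updated through RefSeq, and a gene with several probe sets was given their median, which left 11982 genes.

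The tool was limma 3.58.1 (R 4.3.3), which fitted all 4 groups at once with moderated variances. Two-sided p-values were adjusted by Benjamini and Hochberg's method across the genes of each contrast, with a threshold of 0.05. Over all genes, the standard error of a difference between groups of 3 had a median of 0.0928. Medians over a class are given without a test. In simulated data for tbphΔ23 against w1118 with 11982 genes, 33 of 50 genes changed by 0.5, 49 of 50 changed by 1 and 50 of 50 changed by 2 (log2) were recovered, with 4 false calls. Of 50 genes changed by 0.25, 4 were recovered, also with 4 false calls. A difference near 0.25 that was not called is therefore no sign of an unchanged gene.

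Named genes are cnc and the other listed partners, all germline paralogues, the 3 genes per subunit class that changed most in the rescue against w1118, the 3 that changed most in the mean of the mutants, those called between the alleles, and, by the same mean, 3 per neighbouring list. Other genes named were chosen after their values were seen. The members and lists were chosen with earlier results of these data known. Promoter and protein sequences were not analysed here. Alternatives tried were 2 other scalings, the mean or brightest probe set, a minimum mean log2 of 5, an intensity trend with robust moderation, array weights, a replicate block, fits of the compared groups alone, and leaving out each array. Figures were drawn with matplotlib 3.10.9.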

Additional observations from a re-analysis of the deposited data

Results flagged for a closer look

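Between the alleles, 6 genes differed by the test of the difference itself, tbphΔ142 against tbphΔ23 (limma, adjusted over all genes). Rpt2 (-0.45), Rpn11 (-0.54), Rpn3 (-0.58), Rpn5 (-0.49) and Rpn6 (-0.51) were lower in tbphΔ142, and the germline paralogue Prosbeta2R1 (0.27) was higher. All 6 had separate arrays in the 2 groups. Prosbeta2R1 read 3.43, 3.39 and 3.35 in tbphΔ142, against 3.19, 3.05 and 3.12 in tbphΔ23, near the floor of the deposited values. The actin 3′ to 5′ difference was 2.67 to 3.03 in tbphΔ142, against 2.26 to 2.42 in tbphΔ23, and that of GAPDH was 1.91 to 2.11 in tbphΔ142, against 1.84 to 1.90 in tbphΔ23. Of the fat body genes, the yolk protein genes Yp1 (1.92, adjusted p = 0.0123, limma) and Yp2 (2.84, adjusted p = 1.64e-04) were higher in tbphΔ142 than in tbphΔ23. Lsp2 and apolpp were not called. The part of these readings in the differences between the alleles was not tested.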

How the results depend on the processing

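Over 21 other settings, 12 of which leave out an array, no called difference of a named gene changed sign. Among differences that were not called, 46 changed sign in at least 1 setting, among them that of cnc in tbphΔ142 against w1118. The number of genes called between tbphΔ142 and tbphΔ23 was the count that moved. It was 6 as reported, 13 with a minimum mean log2 of 5, 12 with an intensity trend and robust moderation, 22 with array weights and 20 in a fit of both mutants alone, and leaving out an array gave 0 to 25. Over all genes the calls between the alleles were 418 as reported and 591, 503, 809 and 618 in those 4 settings in the order given, and 134 to 611 on leaving out an array. The count of 0 arose without tbphΔ23 replicate 3 (limma; 23 genes at an unadjusted p under 0.05) and that of 25 without w1118 replicate 2; the cause was not tested. Leaving out an array gave 34 to 37 calls for the rescue against w1118, 31 to 33 against tbphΔ142 and 31 to 32 against tbphΔ23, 34 to 37 for tbphΔ142 against w1118, 31 to 35 for tbphΔ23 against w1118 and 35 to 37 for the mean of both mutants against w1118. The median of the 26 subunits then ranged from -2.24 to -2.04, -1.12 to -1.01, -1.52 to -1.39, -1.23 to -1.03 and -0.83 to -0.58 in the first 5 of these comparisons, and from -0.44 to -0.33 between the alleles.

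Same-numbered arrays did not deviate together, with correlations of -0.212 to 0.0914 and 0 of 18 above 0.1. The arrays were therefore not treated as pairs, though this cannot show whether same-numbered samples were handled together. With a replicate block, 2 genes were called between the alleles, and in the other comparisons 35 for the rescue against w1118, 32 against tbphΔ142, 32 against tbphΔ23, 36 for tbphΔ142 against w1118, 34 for tbphΔ23 against w1118 and 37 for the mean of both mutants.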
